A study of Homo sapiens with 2 samples.

Results

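Transcripts of the IRE1-XBP1 branch and of the membrane-bound ATF6 and CREB3 transcription factors were measured in the human colorectal cancer line HCT116. The 10 genes were chosen by their symbols, and all 10 were found among the 21115 genes of the table. They are ERN1, which encodes the sensor IRE1, XBP1, ATF6 and ATF6B, the CREB3 family genes CREB3, CREB3L1, CREB3L2 and CREB3L4, and MBTPS1 and MBTPS2, which encode the site 1 and site 2 proteases. One library was made from cells treated for 8 h with 1 µM CB-5083, an inhibitor of the ATPase p97 (VCP), and the other from cells given the solvent DMSO for 8 h. Both come from the same cell line, and no other allele or agent is named in the labels. With 1 library per group no difference below has a replicate check, and no test between treatments was possible.

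Unfolded proteins in the endoplasmic reticulum (ER) activate IRE1, an ER membrane kinase and ribonuclease that cuts a short stretch out of XBP1 mRNA. The cut shifts the reading frame, and the spliced mRNA encodes an active transcription factor. ATF6, ATF6B and the CREB3 family proteins are made as ER membrane proteins. When released to the Golgi they are cut by the site 1 protease and then by the site 2 protease, and the freed part enters the nucleus to drive genes of ER folding, degradation and secretory transport. p97 pulls misfolded ER proteins into the cytosol for degradation, which ties it to the load these sensors read.

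The stretch of XBP1 mRNA that IRE1 removes is shown first, because the values below do not separate the forms with and without it. The XBP1 row of the table names the RefSeq accession that GENCODE release 29 links to the spliced transcript, in which these 26 bases are annotated as an intron at chr22:28796124-28796149 (GRCh38, minus strand). The capitals mark the 26 bases in the unspliced transcript, with its flanks on either side, and the next line gives the same flanks joined.
XBP1 unspliced: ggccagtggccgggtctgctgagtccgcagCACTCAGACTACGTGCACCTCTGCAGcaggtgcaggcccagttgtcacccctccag
XBP1 spliced: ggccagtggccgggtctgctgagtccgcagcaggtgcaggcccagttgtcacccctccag
All values here are sums per gene, so splicing of XBP1 was not measured. Cleavage of ATF6 and CREB3 proteins is not visible in RNA either.

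Stretches of promoter are shown for XBP1 and CREB3L2, which held the longest motifs found among the called members, for ERN1, the sensor gene, and for HSPA5, the ER chaperone that ATF6 is best known to induce. They are RefSeq sequences on GRCh38.p14. Capitals mark the ER stress response element (ERSE) in XBP1 and HSPA5, the cAMP response element (CRE) in CREB3L2, and the CCAAT box that the factor NF-Y binds, on the other strand, in ERN1. The XBP1 stretch is chr22:28800598-28800719 (minus strand), that of HSPA5 chr9:125241344-125241493 (minus), that of CREB3L2 chr7:138002187-138002336 (minus) and that of ERN1 chr17:64130145-64130294 (minus).
XBP1: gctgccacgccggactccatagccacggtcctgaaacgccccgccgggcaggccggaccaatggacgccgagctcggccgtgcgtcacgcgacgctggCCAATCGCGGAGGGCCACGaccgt
HSPA5: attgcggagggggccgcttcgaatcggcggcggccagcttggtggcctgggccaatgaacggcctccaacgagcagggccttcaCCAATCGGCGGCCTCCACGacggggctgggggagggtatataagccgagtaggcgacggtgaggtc
CREB3L2: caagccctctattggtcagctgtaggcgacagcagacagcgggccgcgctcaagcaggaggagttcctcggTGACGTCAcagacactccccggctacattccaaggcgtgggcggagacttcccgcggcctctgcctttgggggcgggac
ERN1: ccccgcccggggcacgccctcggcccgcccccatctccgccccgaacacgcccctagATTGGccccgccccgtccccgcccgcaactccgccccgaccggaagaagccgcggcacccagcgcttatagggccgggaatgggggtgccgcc

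The CB-5083 library held 31997808 estimated counts and the DMSO library 29273598. Levels are given as CPM, which set a gene's count against its library's total, with TMM scaling, which assumes that most genes do not differ. Log2 ratios were taken between CB-5083 and DMSO after adding 1 CPM to both, so differences of low genes are understated. A gene was called higher or lower at 2-fold or more, with at least 5 CPM in 1 library. Folds are without the pseudocount, and their 95% exact (Clopper-Pearson) intervals cover counting error only. With library totals as the scaling, the median log2 ratio over genes shifted by -0.33. Over all genes, 371 were then called higher and 994 lower, in place of 689 and 469. As a check of the label, 8 of 11 markers of colon epithelium and HCT116 reached 1 CPM, with CDX1 at 0 in both libraries and VIL1 and CEACAM5 at 1 count or less. Fibroblast, leukocyte, endothelial and plasma cell markers summed to 0.112 to 8.55 CPM with CB-5083 and 0.123 to 23.0 CPM with DMSO, the last mostly SDC1, which epithelium also expresses. By the same 1 CPM limit, 1 of 5 fibroblast, 1 of 4 leukocyte, 1 of 4 plasma cell and 0 of 3 endothelial markers were reached. COL1A1 was at 3.48 CPM with CB-5083 against 2.52 CPM with DMSO, and CD68 at 2.01 against 1.30 CPM. PTPRC, DCN, CDH5 and MZB1 were at 0 in both.

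With CB-5083, 5 of the 10 genes were called higher (ERN1, XBP1, ATF6, CREB3 and CREB3L2) and none lower, where 7.22% of the 9543 genes reaching 5 CPM were called higher, 4.91% lower and 12.1% either. ATF6B, CREB3L4 and both proteases lay within 2-fold, and CREB3L1 was at the limit of detection. With library totals 3 of the 5 were called, because ATF6 had a log2 ratio of 0.92 and ERN1 did not reach 5 CPM. In bulk RNA, fewer cells with a transcript and less of it per cell cannot be told apart.

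**Figure D1:**
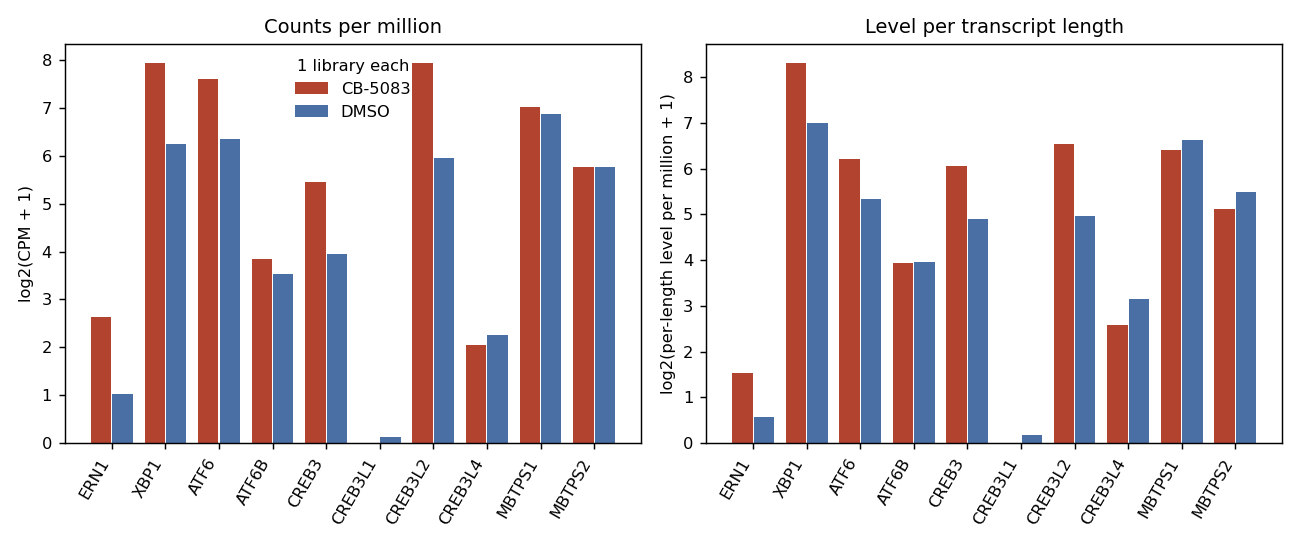
Level of the 10 genes in the CB-5083 library (left bar of each pair) and the DMSO library (right bar), as log2(CPM + 1) on the left and as log2(TPM + 1) on the right, 1 library per bar with no error bars. XBP1, ATF6, CREB3 and CREB3L2 are higher in the CB-5083 library, whereas the bars of MBTPS1 and MBTPS2 are close to level in CPM.

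ERN1 encodes the more widely expressed of the IRE1 proteins. Its row covers chromosome 17 from 62120390 to 62207502 (hg19, the build of the files). It held 149 estimated counts (5.24 CPM) with CB-5083 and 34.0 (1.03 CPM) with DMSO. The fold was 5.08, with a counting interval of 3.48 to 7.61, the widest of the 5 called members. ERN1 passed the 5 CPM limit only through the CB-5083 library, so among genes this low a call could only be a large difference. Its log2 ratio of 1.62 was 0.76 with a pseudocount of 5 CPM, and 2.25 in the authors' deposited table, which uses none. ERN2, the second IRE1 gene, which is known mainly from gut and airway epithelium, held 3.17 estimated counts with CB-5083 and 1.01 with DMSO, too few for a fold.

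XBP1 lies on chromosome 22 from 29190548 to 29196560 (hg19). It had 6941 estimated counts (244 CPM) with CB-5083 and 2474 (75.1 CPM) with DMSO, which is 3.25-fold (3.11 to 3.41). Its log2 ratio of 1.69 exceeded that of 97.8% of the 9543 genes tested. XBP1 was called under the 4 scalings and in the authors' deposited table, where its log2 ratio was 1.61. The ratio of XBP1 to ERN1 counts was 46.6 with CB-5083 and 72.8 with DMSO, a ratio of folds of 0.640 with a 95% log-normal counting interval of 0.440 to 0.932, in which the scaling cancels. It rests on the 34.0 DMSO counts of ERN1, and after the pseudocount the order of XBP1 and ERN1 was the other way, with log2 ratios of 1.69 and 1.62.

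The ATF6 paralogs differed from each other. ATF6, the stronger activator of the pair, lies on chromosome 1 from 161736034 to 161933860 (hg19). It had 195 CPM with CB-5083 against 80.8 CPM with DMSO (2.41-fold, 2.30 to 2.53). ATF6B, on chromosome 6, encodes a weaker activator that can dampen ATF6. It had 13.3 CPM with CB-5083 against 10.5 CPM with DMSO (1.27-fold, 1.09 to 1.47), and its log2 ratio was 0.32, against 0.00018 when library totals were used. The ATF6B row also names alternative chromosome 6 haplotypes, between which reads could be shared. The count ratio of ATF6 to ATF6B was 14.7 with CB-5083 and 7.70 with DMSO, so that the fold of ATF6 was 1.90 times that of ATF6B (1.63 to 2.22). That difference does not depend on the scaling.

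The CREB3 family split more widely. CREB3L2, also called BBF2H7, is known in mouse for driving COPII coat genes in cartilage. It lies on chromosome 7 from 137559725 to 137686847 (hg19) and had the highest log2 ratio of the 10 genes, 1.97 (the fold without a pseudocount was highest in ERN1), above that of 98.7% of genes tested. It had 243 CPM with CB-5083 against 61.3 CPM with DMSO (3.96-fold, 3.77 to 4.17). CREB3, also called Luman, lies on chromosome 9 from 35732317 to 35737005 and is known for Golgi stress genes. It had 42.5 CPM with CB-5083 against 14.4 CPM with DMSO (2.95-fold, 2.65 to 3.29). The 2 folds were unequal, with that of CREB3L2 1.34 times that of CREB3 (1.19 to 1.51).

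CREB3L4, an androgen-responsive factor of the prostate also called AIbZIP, lies on chromosome 1 from 153940379 to 153946832. It had 89.0 counts (3.13 CPM) with CB-5083 and 124 (3.76 CPM) with DMSO, a fold of 0.832 whose interval of 0.627 to 1.10 included 1. Both libraries were below 5 CPM, so that CREB3L4 could not be called. The fold of CREB3L2 was 4.76 times that of CREB3L4 (3.61 to 6.28). CREB3L1, or OASIS, a driver of collagen genes in bone of mice, held 0 counts with CB-5083 and 3 with DMSO. The liver factor CREB3L3 likewise had 0 counts with CB-5083 and 3 with DMSO. A count of 0 allows up to 3 counts, 0.106 CPM with CB-5083 and 0.0910 CPM with DMSO, so no fold is given for either.

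The proteases that cut these factors showed small differences whose sign depended on the scaling. MBTPS1, on chromosome 16 from 84087369 to 84150517, had 129 CPM with CB-5083 against 117 CPM with DMSO (1.11-fold, 1.06 to 1.16). Its log2 ratio of 0.14 became -0.19 with library totals and -0.06 with the upper quartile. MBTPS2, on chromosome X from 21857656 to 21903541, had 53.4 CPM with CB-5083 against 53.3 CPM with DMSO, a fold of 1.00 (0.935 to 1.07), and its log2 ratio was 0.002, against -0.33 with library totals. The authors' deposited table gives -0.09 for it. Set against MBTPS1, which cancels the scaling, the fold of ATF6 was 2.18 times as large (2.04 to 2.33), that of XBP1 2.94 times (2.76 to 3.14) and that of CREB3L2 3.58 times (3.35 to 3.83). These ratios of folds are the same under every scaling.

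**Figure D2:**
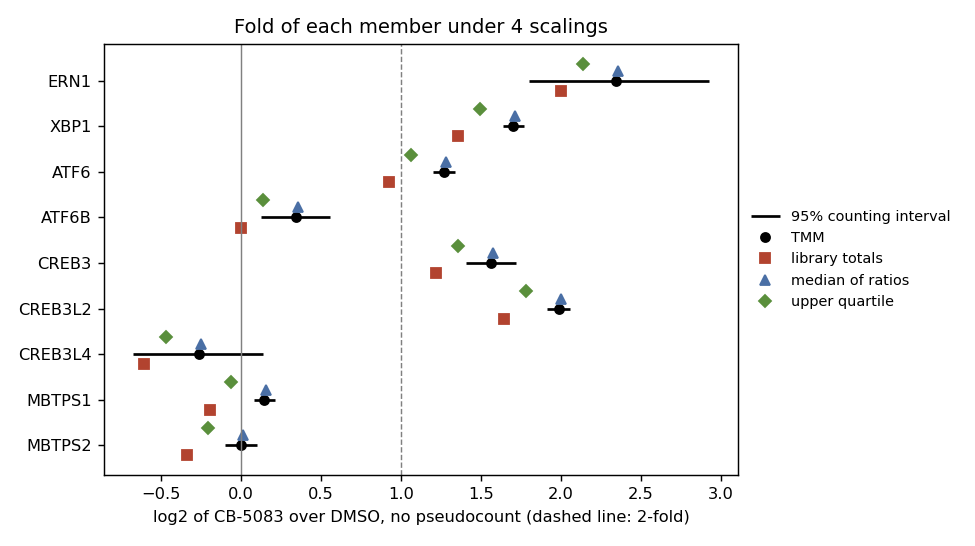
Log2 ratio between CB-5083 and DMSO, without a pseudocount, for the 9 genes with enough counts, under TMM (black, with its 95% counting interval), library totals, median of ratios and upper quartile scaling, with a dashed line at 2-fold. XBP1, CREB3, CREB3L2 and ERN1 stay beyond the line under all 4, ATF6 crosses it with library totals, and ATF6B, CREB3L4, MBTPS1 and MBTPS2 stay within 2-fold.

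To compare levels between genes, counts were divided by the length of the longest annotated transcript and expressed as TPM, in which length is divided out, within each library. Unlike the CPM here, TPM carries no TMM factor, so its values compare genes within a library. Differences of 1 gene between libraries are read from CPM: MBTPS1 was lower with CB-5083 in TPM but higher in CPM. On that per-length scale XBP1 was the most abundant of the 10 in both libraries, at 317 with CB-5083 and 127 with DMSO. CREB3L2 came next with CB-5083 at 92.4, against 30.3 with DMSO, where it stood below MBTPS1, MBTPS2 and ATF6. MBTPS1 was at 83.8 with CB-5083 and 98.4 with DMSO, and ATF6 at 73.3 with CB-5083 and 39.5 with DMSO. The order of MBTPS1 and CREB3L2 with CB-5083 turned round when the mean transcript length was used. With mean lengths XBP1 stayed the most abundant with CB-5083, whereas with DMSO MBTPS1 stood above XBP1, at 155 against 82.6. ERN1 was the lowest called gene, at 1.88 with CB-5083 and 0.480 with DMSO. With mean lengths the CB-5083 levels of ERN1, CREB3, MBTPS1 and MBTPS2 were 4.30, 34.2, 133 and 19.9, against 1.88, 65.5, 83.8 and 33.8 with the longest transcript, each over 1.5 times apart. Within the CREB3 family, CREB3L3 included, CREB3L2 made up 56.7% of the per-length total with CB-5083 and 45.1% with DMSO. CREB3 made up 40.2% with CB-5083 and 42.9% with DMSO, and CREB3L4 3.09% with CB-5083 and 11.7% with DMSO. These shares depend on the length used: with mean lengths CREB3L2 made up 76.3% with CB-5083 and 65.2% with DMSO, and CREB3 21.2% with CB-5083 and 24.4% with DMSO. ATF6 made up 83.7% of the ATF6 pair with CB-5083 and 72.9% with DMSO.

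With 2 libraries the log2 ratio is the only measure of likeness between genes. Among genes of similar mean level, the nearest to XBP1 were FAM107B, GCLC and PPM1B, with log2 ratios of 1.69, 1.70 and 1.68. Nearest to CREB3L2 were C6orf48, ETV5 and LARP1B, each at 1.97, and nearest to CREB3 were NDEL1, MSTO1 and CEBPB, at 1.497, 1.501 and 1.494. For ATF6 they were OSMR, SUV420H1 and ZNF410, each at 1.26, and for ERN1 DKFZp686N1631, RUSC2 and CDK2AP2, at 1.65, 1.65 and 1.59. Between 840 and 3410 genes were compared for each.

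Known targets of the factors, and genes that act around them, were counted from 9 lists. A list gene was measured at a mean of 1 CPM or more. Of 11964 measured genes, 5.76% were called higher, 3.92% lower and 9.68% either, and their median log2 ratio was 0.04. Of the list genes named below, CANX, DERL3, SDF2L1, CRELD2, CHAC1, EDEM3, SEC23A, SEC23B, SEC24A, SEC24B, SEC24C, COL1A1, COL1A2, TXNDC12, NUCB1, THBS1, CD59, PMP22, TRAF2, C22orf28, NFYB and NFYC lie outside the naming rule and were chosen after their values were seen. Of 36 genes known as XBP1 targets, 22 were called higher and none lower. Their median was 1.13, and library totals left 14 called. HYOU1, an exchange factor for HSPA5, had 772 CPM with CB-5083 against 78.2 CPM with DMSO (9.87-fold, 9.48 to 10.3). DNAJB9, which is held to return IRE1 to its resting state, was at 232 CPM with CB-5083 against 26.9 CPM with DMSO (8.61-fold, 8.02 to 9.24). SEC24D, DNAJC3 and DNAJB11, a COPII coat subunit and ER J-domain proteins, were 6.92-fold, 6.013-fold and 5.86-fold higher. PDIA3, the most expressed, was 3.09-fold higher, although reads of its pseudogene may be shared with it. The list was not uniform. EDEM3, a mannosidase of ER-associated degradation, was at 46.0 CPM with CB-5083 against 55.8 CPM with DMSO (0.824-fold, 0.767 to 0.886), while its relative EDEM1 was 3.08-fold higher (2.89 to 3.29).

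All 20 measured ATF6 targets were called higher, with a median of 2.34. Library totals left 17 called, and a filter of 10 CPM left 19. SDF2L1, at 5.14 CPM with CB-5083 against 0.850 CPM with DMSO, and CRELD2, at 32.4 against 4.61 CPM, passed the 5 CPM limit only through the CB-5083 library. Of these 20, they could only be called higher by a large difference. XBP1 is 1 of the 20, and DERL3, not measured, was at 0 in both libraries. HERPUD1, an organiser of ER degradation, had 1033 CPM with CB-5083 against 57.0 CPM with DMSO (18.1-fold, 17.3 to 19.01). HSPA5 had 21303 CPM with CB-5083 against 1282 CPM with DMSO (16.6-fold, 16.5 to 16.8). SEL1L, partner of the ubiquitin ligase SYVN1, was 7.15-fold higher (6.90 to 7.40). DDIT3, which encodes CHOP and also stands on the PERK list, had the largest fold, 57.0 (49.6 to 65.8). CANX, the lectin calnexin, had the smallest at 2.02 (1.998 to 2.04), and was at 0.67 on the log2 scale with library totals. The targets of ATF6, of XBP1 and of the transport list share genes, and 8 of the 8 ATF6 targets on no other list were higher, against 9 of 20 such XBP1 targets. These 8 include XBP1 itself, SDF2L1 and CRELD2, and every ATF6 target that library totals left uncalled was among them.

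Of 17 targets ascribed to the CREB3 family, 10 were called higher and none lower. Their median was 1.11, and library totals left 6 called. Besides HERPUD1 and SEC24D, NUCB2, a calcium-binding Golgi protein, was 5.33-fold higher (5.03 to 5.65) and ARF4, a small GTPase of Golgi stress, 2.66-fold (2.60 to 2.73). CDKN1A, an inhibitor of the cell cycle, was 2.65-fold higher (2.47 to 2.84). SEC23A, the COPII gene that CREB3L2 drives in mouse cartilage, had 240 CPM with CB-5083 against 163 CPM with DMSO (1.47-fold, 1.42 to 1.53) and was not called. Of the collagen genes that CREB3L1 drives in mouse bone, COL1A2 was at 0 in both libraries and COL1A1 at 3.48 CPM with CB-5083 against 2.52 CPM with DMSO. TMED2, a cargo receptor and the most expressed, was at 1102 CPM with CB-5083 against 567 CPM with DMSO, just short of 2-fold.

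Transport and tethering partners of ATF6 included 12 called higher among 25, with a median of 0.96. These included HSPA5, which holds ATF6 in the ER, CALR (3.99-fold, 3.90 to 4.08) and THBS1, a secreted glycoprotein (3.75-fold, 3.41 to 4.13). TXNDC12, a disulfide reductase, was at 127 CPM with CB-5083 against 128 CPM with DMSO. Of the 12, only NUCB1 and THBS1 stood on no other list. COPII subunits differed among themselves. SEC24D was 6.92-fold and SEC23B 2.67-fold higher, whereas SEC24A, SEC24B and SEC24C had folds of 1.61, 1.22 and 1.41.

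**Figure D3:**
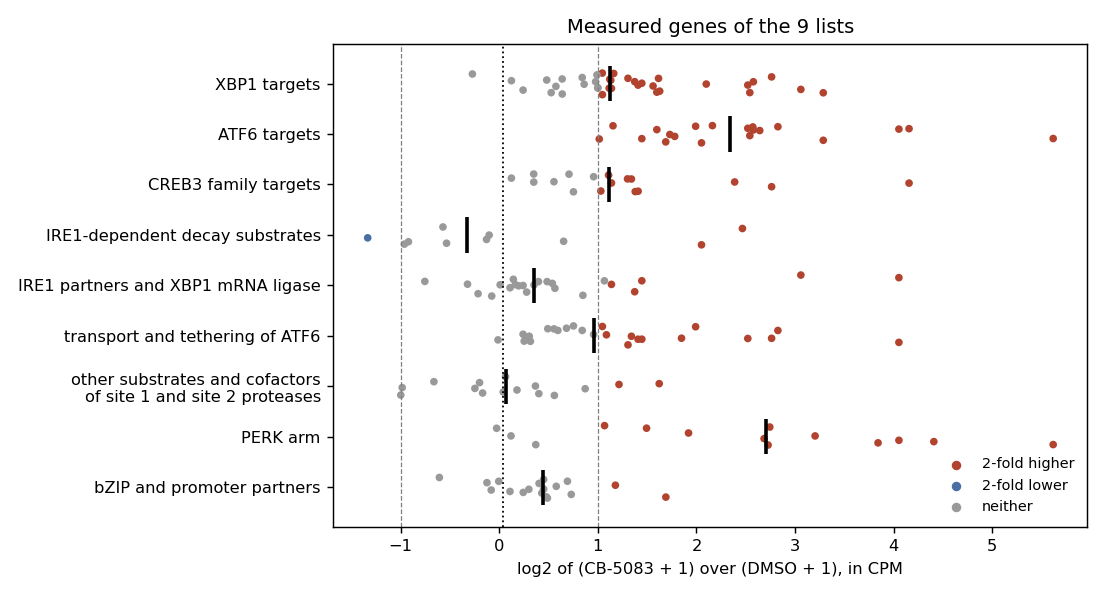
Log2 ratio between CB-5083 and DMSO, with 1 CPM added, for each measured gene of the 9 lists, coloured by call, with the median of each list as a bar, the median of all measured genes (0.04) as a dotted line and 2-fold as dashed lines. All 20 ATF6 targets lie beyond the upper line, whereas the genes of IRE1-dependent decay lie on either side of 0.

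IRE1 also cuts a set of other mRNAs, which is known as regulated IRE1-dependent decay. Of 10 measured genes from that literature 2 were higher, 1 was lower and 7 neither, with a median of -0.33. SCARA3, a scavenger receptor, had 3.41 CPM with CB-5083 against 10.1 CPM with DMSO (2.97-fold lower). BLOC1S1, the substrate most used as a readout, was at 2.72 CPM with CB-5083 against 6.05 CPM with DMSO, which is 2.22-fold lower, and COL6A1 at 3.87 CPM with CB-5083 against 8.496 CPM with DMSO, 2.20-fold lower. The pseudocount held both of these short of the threshold, and with 0.25 CPM in its place 3 genes of the list were called lower. SCARA3, BLOC1S1 and COL6A1 reached 5 CPM only in the DMSO library (SCARA3 at 10.1 CPM), so at these levels a call of lower could only be a large difference. TNFRSF10B, the death receptor DR5 and a CHOP target too, was 5.58-fold higher (5.36 to 5.80), and PDIA4, on the ATF6 list too, 4.16-fold (4.05 to 4.28). CD59 was at 89.8 CPM with CB-5083 against 131 CPM with DMSO and PMP22 at 28.9 CPM with CB-5083 against 43.4 CPM with DMSO, both within 2-fold. RNA decay and synthesis cannot be told apart in these values.

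IRE1 partners and the ligase that rejoins XBP1 mRNA included 5 called higher among 23, with a median of 0.35 that was 0.01 under library totals. The 5, HSPA5, DNAJB9, PDIA6, SEC63 and SEC61A1, all stand on other lists. C22orf28, the catalytic ligase subunit now named RTCB, was at 64.3 CPM with CB-5083 against 52.9 CPM with DMSO (1.22-fold, 1.14 to 1.30). TRAF2, an adaptor of IRE1 signalling, was at 0.563 CPM with CB-5083 against 1.64 CPM with DMSO, too low to be called. Other substrates and cofactors of the proteases included 2 called higher and none lower among 15, with a median of 0.06. With library totals 1 was called higher and 3 lower, and the median was -0.26. Over all 9623 genes tested with that scaling, 371 were higher and 994 lower. SREBF1 and SREBF2, the sterol factors cut by the same proteases, were at 16.0 and 44.4 CPM with CB-5083 against 15.3 and 29.8 CPM with DMSO. Their retention factors lay on opposite sides of 0, with INSIG2 3.14-fold higher (2.93 to 3.36) and INSIG1 at 51.2 CPM with CB-5083 against 103 CPM with DMSO, 2.02-fold lower but short of the threshold with the pseudocount. HMGCS1, a sterol synthesis gene, was 2.33-fold higher (2.25 to 2.41) but reached 0.87 on the log2 scale under library totals.

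The PERK branch, which shares the ER load as its trigger, had 11 of 14 genes called higher, with a median of 2.71. Library totals, upper quartile scaling or a filter of 10 CPM each left 10 called. CHAC1, at 7.39 CPM with CB-5083 against 0.303 CPM with DMSO, and SESN2, at 60.3 against 3.28 CPM, passed the 5 CPM limit only through the CB-5083 library. For them a call could only be a large difference. EIF2AK3, the kinase PERK, had 149 CPM with CB-5083 against 21.7 CPM with DMSO (6.88-fold, 6.35 to 7.46). Beside it, ERN1 had a fold of 5.08, with the limit of its low DMSO level given above, and ATF6 one of 2.41. Neither ERN1 nor ATF6 was called with library totals. Factors that pair with these proteins or bind beside them included 2 called higher among 18, with a median of 0.44. JDP2 was 4.43-fold (3.33 to 5.97) and ATF2 2.34-fold (2.11 to 2.60) higher. JDP2 passed the 5 CPM limit only through the CB-5083 library, at 8.20 CPM against 1.85 CPM with DMSO. At that level a call of higher could only be a large difference. NFYA, NFYB and NFYC, the subunits of NF-Y, had folds of 1.67, 1.40 and 1.36. GTF2I, the most expressed, was at 187 CPM with CB-5083 against 286 CPM with DMSO, although near-identical copies can share its reads.

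The motifs were searched on both strands in windows from 250 bases before to 50 bases after each RefSeq start. All 10 genes had a window, and XBP1 and CREB3L2 had 2 each. The ERSE is CCAAT followed after 9 bases by CCACG. It was found in XBP1 alone of the 10, in 1 of its 2 windows, with its first base at -52 from the start. It occurs in 27 of 35116 windows, or 0.0769%. HSPA5 carries it at -66. HERPUD1 carries the related ERSE-II, ATTGG followed after 1 base by CCACG, found in 0.0541% of windows. CREB3L2 held the CRE, TGACGTCA, present in 1.85% of windows, at -179, and the UPRE, TGACGTGG, present in 0.729%, was in none of the 10. Counted per gene, over tested genes with a window, the CRE was in 4.19%, and in 4.76% of those called higher. The short boxes CCACG and CCAAT, which are counted within the ERSE too, are common, at 38.1% and 34.6% of windows. Per tested gene their shares were 58.3% and 44.3%. ERN1 held CCAAT alone, CREB3 CCACG alone, and ATF6, CREB3L1 and MBTPS2 held no match.

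**Figure D4:**
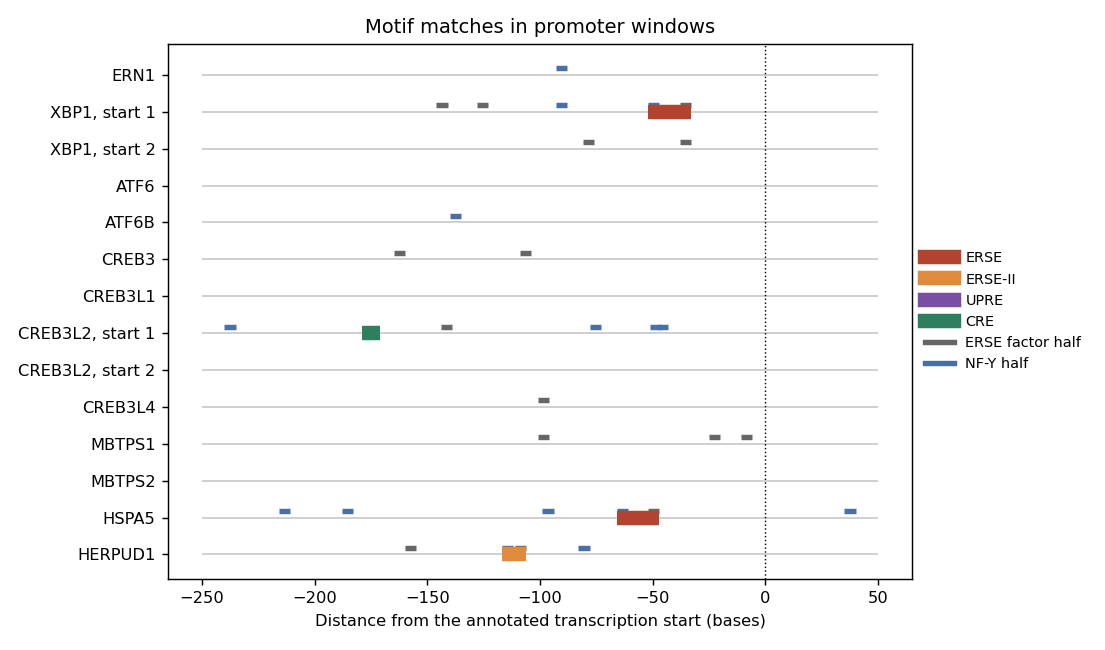
Matches to 6 motifs in the promoter windows of the 10 genes and of HSPA5 and HERPUD1, by distance in bases from the annotated start, with 1 line per window and CCACG (grey) and CCAAT (blue) as thin marks. The full ERSE is drawn in XBP1 and HSPA5, close to the start in both, and the CRE in CREB3L2.

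Of the 9543 genes tested, 7680 could be matched to a promoter window, and 12 of these held an ERSE. XBP1 was 1 of 10 called higher among the 12, and none was lower. Over all 7680, 546 were called higher and 333 lower. With library totals TRIM5 and CANX fell short of the threshold, at log2 ratios of 0.93 and 0.67. The element was first described in promoters of ER chaperones such as HSPA5, HSP90B1 and CALR, so these 3 are no independent cases. The other called genes were CRELD2 (7.02-fold, 5.91 to 8.39, below 5 CPM with DMSO), ERO1LB (5.95-fold, 5.39 to 6.57), SERP1, PDIA6, TRIM5 and CANX. XBP1, CRELD2, PDIA6 and CANX stand on the list of ATF6 targets, and SERP1 on that of XBP1 targets. As the lists hold known targets, these genes are no independent cases either. ERO1LB, an ER oxidase, and TRIM5, a restriction factor (2.48-fold, 2.25 to 2.72), were chosen for naming after their values were seen. EIF2A and ZNF17, at log2 ratios of 0.60 and 0.44, were not called. XBP1 stood in the middle of the 12 with its log2 ratio of 1.69, between CALR at 1.99 and SERP1 at 1.62. A match is a description of sequence and shows neither binding nor cause.

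**Figure D5:**
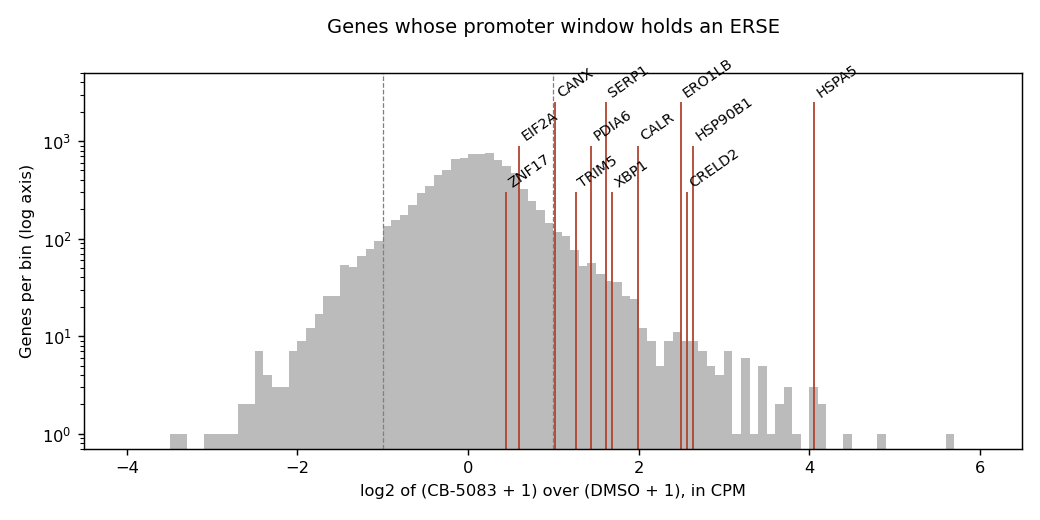
Number of tested genes (log axis) by log2 ratio between CB-5083 and DMSO, with 1 CPM added, with the 12 genes whose promoter window holds an ERSE as labelled lines and 2-fold as dashed lines. Of the 12, 10 lie beyond the upper line, XBP1 at 1.69 and HSPA5 farthest at 4.05.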

How the data were processed

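Messenger RNA of HCT116 cells was sequenced with a stranded kit, per the labels' protocols, with 1 library per treatment. Per the submitters' processing notes, RSEM 1.2.0 and hg19 were used, while no source used here names an aligner. The deposited columns hold a signal, which is estimated counts that the authors scaled to a 75th percentile near 1000. The authors' deposited log2 ratio has no pseudocount. Dividing by the value of 1 count in each library (1.18 with CB-5083 and 1.08 with DMSO) recovered estimated counts, of which 55.3% and 54.2% of values above 0 were whole within 0.02. The design had foreseen counts, and CPM were computed from these estimates with TMM factors of 0.8883 for CB-5083 and 1.126 for DMSO. Coordinates are 1-based. Transcript lengths come from GENCODE release 29 and promoters from RefSeq. The members and lists were chosen with earlier results of these data known. By the naming rule, the genes named are the 10 members, ERN2 and CREB3L3, for each list the most expressed gene and the 5 largest ratios, 11 further genes of these pathways, and the 3 nearest genes of each called member. Outside that rule, marker genes, the genes holding an ERSE and the list genes flagged above as chosen after their values were seen are named too. Calls and intervals were tested on simulated data. The software was Python 3.11.15 with numpy 2.4.6 and pandas 2.3.3, besides scipy 1.17.1 and matplotlib 3.10.9. Other scalings, pseudocounts, filters, thresholds, list memberships and transcript lengths were each tried separately.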

Additional observations from a re-analysis of the deposited data

How the results depend on the processing

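With library totals, 3 of the 10 genes were called higher in place of 5, and the counts of higher genes were 14 for XBP1 targets, 6 for CREB3 family targets, 1 for protease substrates and 1 for bZIP and promoter partners. Over all 9623 genes tested with this scaling, 371 were called higher and 994 lower. With upper quartile scaling 466 of 9574 were higher and 750 lower. ERN1 also lost its call with upper quartile scaling, a pseudocount of 5 CPM or a filter of 10 CPM, each of which left 4 members called. The count of bZIP and promoter partners was 1 in each of these runs too, and 4 at 1.5-fold. At 4-fold, 0 of the 10 genes were called, with 7 XBP1 targets, 12 ATF6 targets, 3 CREB3 family targets, 2 IRE1 partners, 4 transport partners, 0 protease substrates, 0 bZIP partners and 24 of all 146 measured list genes in place of 60. Decay substrates called lower were 3 in place of 1 with library totals, upper quartile scaling, the authors' deposited ratio, a pseudocount of 0.25 CPM or 1.5-fold, and 0 with 5 CPM or 4-fold. Protease substrates called lower were 3 in place of 0 with library totals or at 1.5-fold, and 2 with upper quartile scaling, the authors' deposited ratio or 0.25 CPM. The stricter threshold itself lowers these counts. Of the 9543 genes tested, 70.1% lay within 1.5-fold in either direction. No share of all genes was taken at 4-fold, so the counts at 4-fold have no background beside them. Leaving out genes on more than 1 list left 9 XBP1 targets, 8 ATF6 targets, 6 CREB3 family targets, 1 decay substrate, 0 IRE1 partners and 2 transport partners higher, so the called genes of the IRE1 partners (0 of 18 left) and most of those of the transport list (2 of 10) were ones shared between lists. The per-length level of XBP1 with CB-5083 was 208 with the mean transcript length and 348 with the transcript of the row's accession, a choice made after the data were seen. The levels of ERN1, CREB3, MBTPS1 and MBTPS2 moved by over 1.5 times with mean lengths too. With the runs that left 4 members called included, 116 counts of genes called higher or lower among the members, or higher in a list, stayed within 1.5 times. No paired analysis was possible because each group holds 1 library. No called log2 ratio of the 10 genes changed sign under any alternative run. Depth limits CREB3L1, CREB3L3 and ERN2, and leaves ERN1 with the widest interval of the 5 called members.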
